A study of Rattus norvegicus with 8 samples.

Results

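Retinal ganglion cells are the neurons that send the eye's output to the brain, and 9 genes that mark them or carry out their work are described here in cells given a Klf4 plasmid. The genes are Rbpms, Rbpms2, Gap43, L1cam, Slc17a6, Elavl4, Dcx, Shh and Syt13. These genes were chosen by name, with earlier results of these data known, and found through the RefSeq accessions of the array's probes. They have 13 of the 45598 gene probes on the array, and are 9 of the 16581 gene symbols that could be named. All samples came from retinas of Lister hooded rats taken on postnatal day 0, electroporated in vitro with 5 pulses of 25 V and 50 ms, cultured for 39 hours, dissociated and sorted for GFP. The Klf4 group had received a Klf4 plasmid, which carries the gene of a transcription factor with zinc fingers, and the control group a control plasmid. Each group had 4 arrays, numbered 2 to 5. The promoter that drives the plasmids, and whether the numbers mark separate animals or electroporations, are not given in the sources used here. The spread behind each p-value is therefore that between arrays, and may be technical in origin.

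Ganglion cells are the first neurons born in the vertebrate retina, and in rodents they arise before birth, whereas the progenitors left in a newborn retina mostly make rods, bipolar cells, late amacrine cells and Muller glia. The transcription factor Atoh7 is needed for ganglion cells to form, and Pou4f2 and Isl1 act after it as the cells differentiate. Young ganglion cells extend an axon towards the optic nerve, release glutamate and secrete sonic hedgehog, which acts on nearby progenitors. Of the 9 genes, Rbpms is the marker most restricted to ganglion cells in the rodent retina, while Elavl4, Gap43, Dcx and L1cam are also found in other young neurons.

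Signals are given as log2 of the background-subtracted intensity less the array's 75th percentile over gene probes, so that a value of 0 stands at that percentile. That percentile ranged from 732 (control replicate 5) to 1718 intensity units (control replicate 3). Of the gene spots, the share called well above background by the software ranged from 72.1% (Klf4 replicate 4) to 86.5% (Klf4 replicate 2). Both arrays numbered 5 belonged to the second of 2 scans, and both arrays numbered 4 lay outside the scanner software's quality limits. The controls lay in slide columns 1 and 3 and the Klf4 arrays in columns 2 and 4, so that column and group cannot be told apart. The probe for Klf4 itself gave -3.70, -1.74, -3.36 and -3.19 on Klf4 arrays 2 to 5, against -3.87, -2.45, -3.58 and -3.18 on the control arrays (log2 difference 0.27, SE 0.46, limma adjusted p = 0.916). Where that probe lies relative to the plasmid's insert is not given, so it does not check the labels.

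Of the other genes tied to ganglion cells, Isl1 and Atoh7, and Pou4f2 by its brighter probe, were well above background on all 8 arrays. Thy1, a surface protein of ganglion cells, and Nefl, a neurofilament subunit, were well above background on 2 of 4 Klf4 arrays and 2 of 4 control arrays. Sncg, a synuclein enriched in ganglion cells, was so on 1 Klf4 array and 0 control arrays, and Pou4f3 on 0 arrays of either group. The sorted cells thus held transcripts of several of these genes, with others at or near background in both groups. Which cells those transcripts came from was not measured. Each array measured a pool of sorted cells, in which fewer cells of a type and less RNA per cell cannot be told apart.

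KLF4 recognises GC-rich DNA with a CACCC core. The RefSeq promoter table (GRCr8) held 4 of the 9 genes, and the 250 bases before the start of a gene that passed the test and of one that did not are shown with CACCC, or GGGTG where it lies on the other strand, in capitals. They are from chr8:75048470-75048719 (+ strand) and chr1:110348197-110348446 (+ strand).
Rbpms2: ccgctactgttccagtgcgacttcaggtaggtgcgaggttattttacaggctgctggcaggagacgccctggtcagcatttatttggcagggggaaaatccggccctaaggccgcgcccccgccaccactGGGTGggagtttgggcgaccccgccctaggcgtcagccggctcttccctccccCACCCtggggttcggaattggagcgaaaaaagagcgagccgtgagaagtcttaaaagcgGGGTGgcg
Slc17a6: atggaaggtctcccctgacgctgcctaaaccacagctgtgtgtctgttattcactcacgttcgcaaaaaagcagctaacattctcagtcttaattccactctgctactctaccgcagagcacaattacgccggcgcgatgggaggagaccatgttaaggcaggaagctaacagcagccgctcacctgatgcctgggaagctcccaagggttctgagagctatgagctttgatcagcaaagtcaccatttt
The letters stood 3 times before Rbpms2, with first bases at -120, -67 and -8 from the start, and 0 times before Slc17a6. Before Elavl4 and Dcx, neither of which passed the test, they stood 2 times each. Among all 33469 promoters of the table, 49.2% held CACCC on either strand in this window. The longer CCACACCC was in 0 of the 4 promoters and in 2.84% of all. These matches describe letters only, and binding was not measured.

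Compared with the control, 3 of the 9 genes were higher with Klf4: Rbpms2, Gap43 and L1cam, each by a little over 1 on the log2 scale. None was lower. Over all 30009 genes and features tested with limma, 3.20% were higher and 0.463% lower at a Benjamini-Hochberg adjusted p under 0.05. The same 3 genes were those with no overlap between the groups, against 5.74% of all features that lay wholly higher and 4.47% wholly lower. The median log2 difference was 0.94 over the 9 genes and -0.07 over all features, and 8 of the 9 differences were above 0. The other 6 genes did not pass. Rbpms and Syt13 had differences of 0.94 and 2.21 that missed the threshold, and Slc17a6, Elavl4, Dcx and Shh had differences between -0.13 and 0.07.

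**Figure D1:**
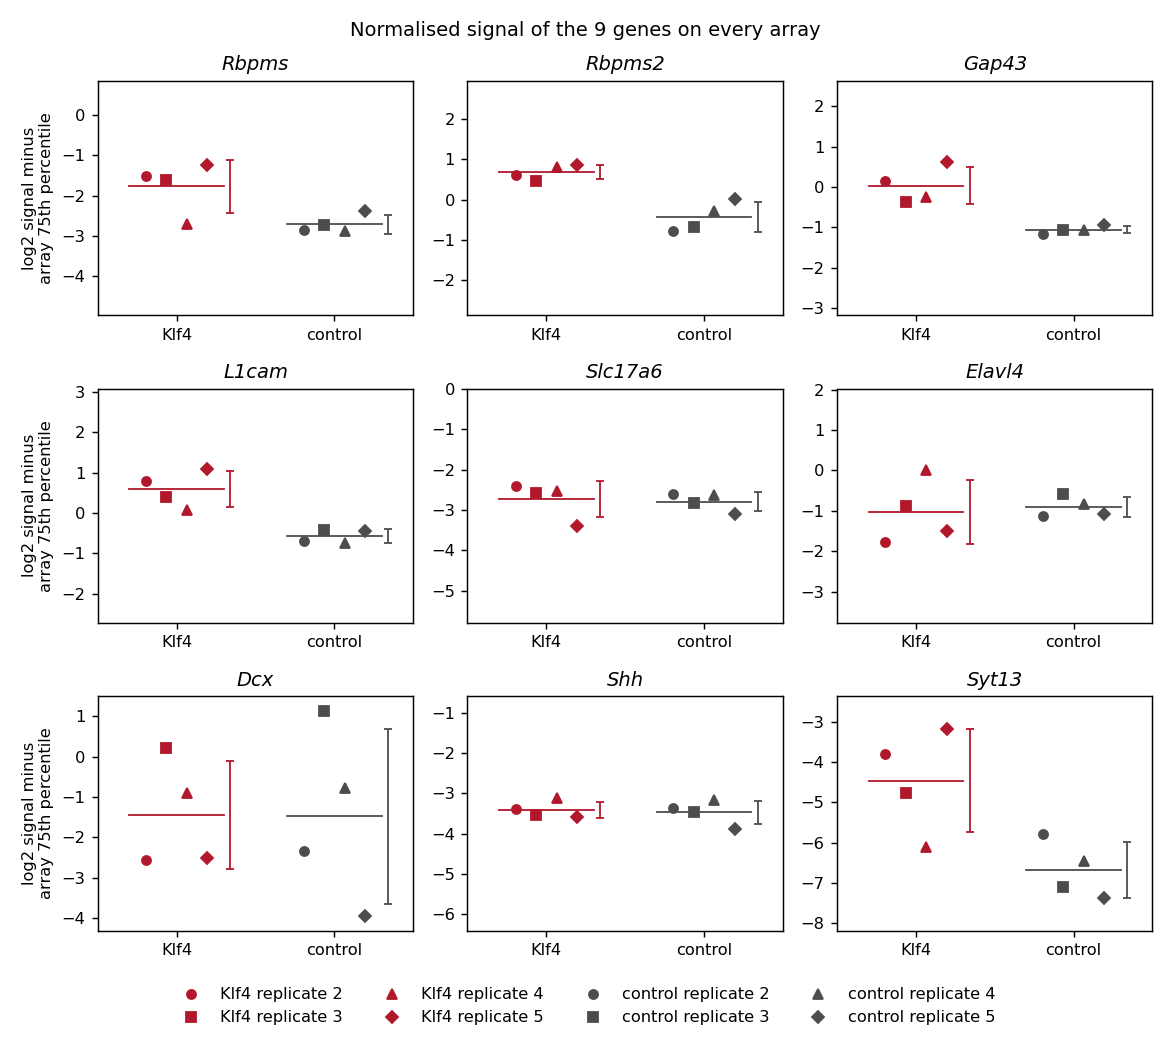
Normalised log2 signal (log2 signal minus the array's 75th percentile) of the 9 genes on every array, with Klf4 on the left and control on the right of each panel; symbols mark replicate numbers, horizontal lines the group means and vertical bars 1 SD (n = 4 each). Every panel spans the same log2 range. The groups are separate for Rbpms2, Gap43 and L1cam, and the points of Dcx are the most widely spread.

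Rbpms2 encodes an RNA-binding protein closely related to Rbpms and present in ganglion cells. It had 0.60, 0.47, 0.81 and 0.85 on Klf4 arrays 2 to 5, against -0.78, -0.68, -0.29 and 0.01 on control arrays 2 to 5. All Klf4 values lay above all control values, and the control values were more spread than the Klf4 values. The means were 0.68 ± 0.18 with Klf4 and -0.43 ± 0.36 in the control (SD, n = 4 each), a log2 difference of 1.11 (SE 0.20, 95% interval 0.66 to 1.57, limma adjusted p = 0.0175), or 2.16-fold. Within the first scan the difference was 1.21, and within the second 0.83. It missed the threshold without Klf4 replicate 2 (adjusted p = 0.0574) or 5 (0.0608), without control replicate 2 (0.0536) or 3 (0.0574), and without both arrays numbered 4 (0.0658).

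Rbpms had 5 probes, which by their accessions detect different transcripts or stretches of the gene. The probe with the highest mean signal, which stands for the gene in the fit, had -1.52, -1.61, -2.72 and -1.24 on Klf4 arrays 2 to 5, against -2.85, -2.72, -2.89 and -2.39 on control arrays. Klf4 replicate 4 lay among the controls and the other 3 Klf4 arrays above them. The log2 difference of 0.94 (SE 0.31) did not pass the test (limma adjusted p = 0.209). Without Klf4 replicate 4 it was 1.26 and passed (adjusted p = 0.00500), as it did without both arrays numbered 4 (1.199, adjusted p = 0.0173) and with limma's array weights (1.25, adjusted p = 0.000466).

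The other 4 Rbpms probes were also higher on average with Klf4, and the 5 differences ranged from 0.94 to 1.91. The third probe by signal had -1.62, -1.88, -2.45 and -1.52 with Klf4, against -3.98, -3.27, -3.89 and -2.96 in the control. It was the only Rbpms probe with no overlap between the groups and the only one past the threshold when every kept probe was fitted (difference 1.66, limma adjusted p = 0.0158), where 3.12% of 34758 probes were higher and 0.501% lower. The probes of second and next to lowest signal had differences of 1.21 and 1.17 (adjusted p = 0.204 and 0.186). The probe with the lowest mean signal was well above background on 3 Klf4 arrays and 0 control arrays. Its difference of 1.91 did not pass (adjusted p = 0.218), and Klf4 replicate 4 (-6.75) lay among the control values (-7.42 to -5.61). Its Klf4 mean was 1.90-fold a control level raised to the detection floor (the dimmest signal called well above background). That level took, on each control array, the floor or the probe's own value, whichever was higher. The ratio compares means only and, with the groups overlapping, sets no lower limit on the change. On each of the 5 probes the lowest Klf4 value was that of replicate 4. Averaging the 5 probes gave 1.38 for the gene, which did not pass either.

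**Figure D2:**
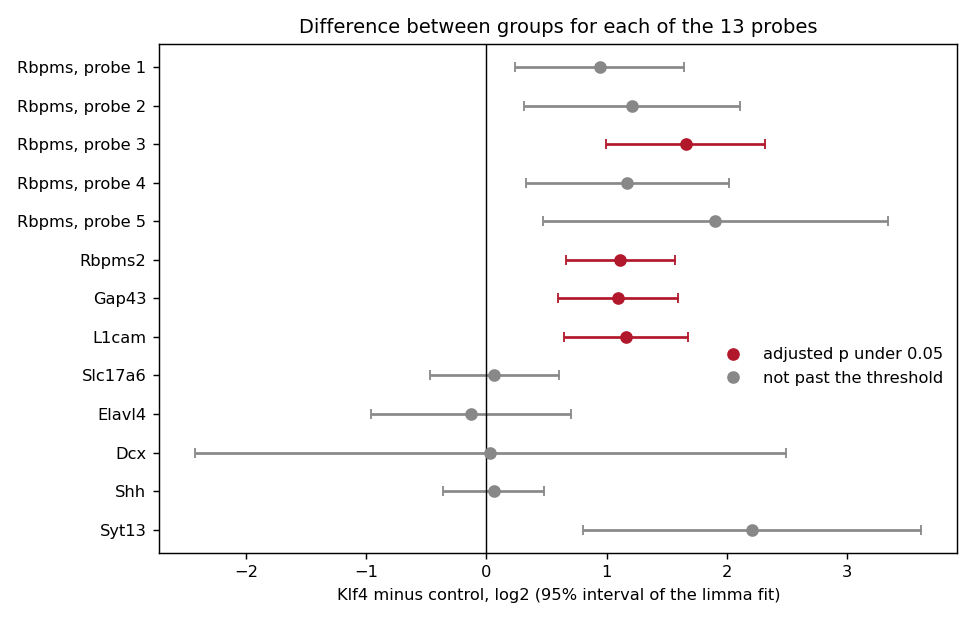
Log2 difference (Klf4 minus control) for each of the 13 probes, with points for the estimate, bars for the 95% interval of the limma fit and red for an adjusted p under 0.05. Rbpms probes are numbered by mean signal, the brightest first, and their differences run from 0.94 to 1.91. The interval of Dcx is the widest, at -2.42 to 2.49.

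Elavl4 encodes HuD, a neuronal RNA-binding protein that stabilises messenger RNAs, that of Gap43 among them. It had -1.76, -0.89, 0.01 and -1.50 on Klf4 arrays 2 to 5, against -1.12, -0.58, -0.83 and -1.09 on control arrays. The Klf4 values surrounded the control values on both sides. The log2 difference was -0.13 (95% interval -0.96 to 0.70, limma adjusted p = 0.961), an interval that includes changes of either sign. Without Klf4 replicate 4 it was -0.48 (adjusted p = 0.413), and without Klf4 replicate 2 it was 0.11 (adjusted p = 0.927).

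Gap43 encodes a growth cone protein of extending axons, and its probe was printed in 10 spots, more than that of any of the other 8 genes. It had 0.16, -0.38, -0.24 and 0.62 on Klf4 arrays 2 to 5, against -1.16, -1.06, -1.07 and -0.93 on control arrays. The lowest Klf4 value was above the highest control value, and the controls lay close together (SD 0.093) while the Klf4 arrays were spread (SD 0.45). The log2 difference was 1.09 (SE 0.22, 95% interval 0.60 to 1.59, limma adjusted p = 0.0298), or 2.13-fold, with 0.94 within scan 1 and 1.55 within scan 2. It missed the threshold without Klf4 replicate 2 (adjusted p = 0.108), without control replicate 2, 3, 4 or 5 (0.0967, 0.0843, 0.0898 and 0.0571) and without both arrays numbered 4 (0.0691). It also missed it with no filter on dim probes (0.0569) and with the percentile taken over spots (0.0566).

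L1cam encodes an adhesion molecule on the surface of growing axons. It had 0.79, 0.41, 0.08 and 1.10 on Klf4 arrays 2 to 5, against -0.68, -0.42, -0.74 and -0.44 on control arrays. Again all Klf4 values were above all control values, and the Klf4 arrays were the more spread. The log2 difference was 1.16 (SE 0.22, 95% interval 0.65 to 1.67, limma adjusted p = 0.0257), or 2.24-fold, with 1.04 within scan 1 and 1.54 within scan 2. The call was lost without Klf4 replicate 2, 3 or 5 (adjusted p = 0.0971, 0.0568 and 0.0506), without control replicate 2, 3, 4 or 5 (0.0851, 0.0567, 0.0870 and 0.0501), with only the arrays of scan 1 (0.0749) and with the percentile taken over spots (0.0579).

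Dcx encodes doublecortin, which binds microtubules in migrating and newly made neurons. It had -2.57, 0.21, -0.90 and -2.51 on Klf4 arrays 2 to 5, against -2.34, 1.13, -0.76 and -3.94 on control arrays. The values of both groups covered a wide range and overlapped, with the array numbered 3 the highest in each group. The pooled SD within groups was 1.80, at the 99.8th percentile of all features, whose median was 0.31. The log2 difference of 0.03 had a 95% interval of -2.42 to 2.49 (limma adjusted p = 0.996). That interval includes large changes of either sign.

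Slc17a6 encodes the vesicular glutamate transporter VGLUT2, which loads synaptic vesicles in ganglion cells. It had -2.41, -2.59, -2.52 and -3.39 on Klf4 arrays 2 to 5, against -2.61, -2.82, -2.63 and -3.11 on control arrays. The groups overlapped, and the arrays numbered 5 were the lowest in both. The log2 difference was 0.07 (95% interval -0.47 to 0.60, limma adjusted p = 0.972), an interval whose upper end lies below the differences fitted for Rbpms2, Gap43 and L1cam.

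Syt13 encodes an atypical synaptotagmin, a membrane protein of the family that includes the calcium sensors of vesicle release. It had -3.79, -4.77, -6.09 and -3.19 on Klf4 arrays 2 to 5, against -5.79, -7.09, -6.45 and -7.36 on control arrays. It was well above background on 3 Klf4 arrays and 1 control array, and only Klf4 replicate 4 reached down into the control values. The log2 difference of 2.21 (SE 0.62, 95% interval 0.80 to 3.62) did not pass the test (limma adjusted p = 0.122). With 3 of the 4 control arrays not well above background its size is uncertain, and its within-group SD of 1.02 was at the 97.4th percentile of all features. Without Klf4 replicate 4 it was 2.76 and passed (adjusted p = 0.0180), while normexp background correction gave 0.78 (adjusted p = 0.308).

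**Figure D3:**
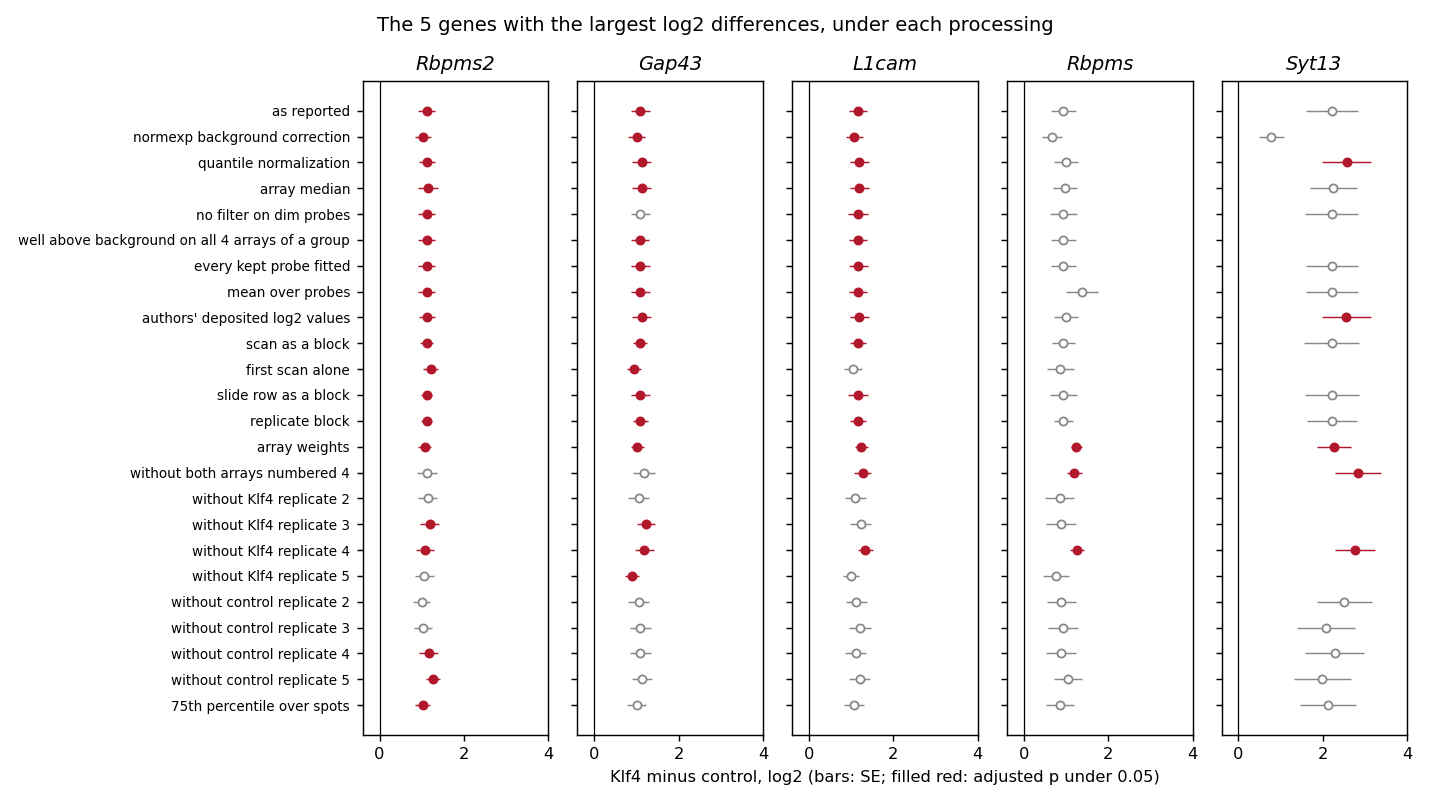
Log2 difference (Klf4 minus control) with SE bars for the 5 genes with the largest differences, as reported and under each of 23 alternatives; filled red points had an adjusted p under 0.05, and a missing point means that the gene did not pass that setting's filter. All points lie above 0, and Rbpms2 was past the threshold in 18 alternatives, Gap43 in 15, L1cam in 14, Syt13 in 5 and Rbpms in 3.

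Shh encodes sonic hedgehog, the ligand that ganglion cells secrete. It had -3.40, -3.53, -3.13 and -3.60 on Klf4 arrays 2 to 5, against -3.37, -3.48, -3.18 and -3.87 on control arrays. The values of the groups lay almost on top of each other. The log2 difference was 0.06 (95% interval -0.36 to 0.48, limma adjusted p = 0.965).

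Among 12 other hedgehog pathway genes that were tested, 1 was higher and 0 lower, with a median log2 difference of -0.06. The higher gene was Dhh, the desert hedgehog ligand, with -1.03, -1.37, -1.67 and -1.45 on Klf4 arrays 2 to 5, against -5.85, -4.88, -5.49 and -5.63 on control arrays. Its groups were far apart, although only 2 of the 4 control arrays were well above background. The log2 difference was 4.08 (SE 0.23, limma adjusted p = 0.000123), and it was 2.39 with normexp background correction. The genes whose levels report hedgehog signalling did not pass the test: Gli1, a transcription factor, had -0.05 (adjusted p = 0.965), the receptor Ptch1 -0.73 (0.670) and the ligand-binding inhibitor Hhip 0.24 (0.667).

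Of 23 tested genes related to the 9 by family or function, 3 were higher and 0 lower, with a median log2 difference of -0.03. Elavl3, a neuronal relative of Elavl4, had 1.33, 1.33, 1.27 and 1.76 on Klf4 arrays 2 to 5, against -0.10, 0.81, 0.27 and 0.34 on control arrays (log2 difference 1.09, limma adjusted p = 0.0256). Its second probe had 0.84 and did not pass (adjusted p = 0.343). The call of Elavl3 was lost without Klf4 replicate 2, 3 or 5 (adjusted p = 0.0770, 0.0668 and 0.0746), without control replicate 2, 4 or 5 (0.0639, 0.0838 and 0.0597), without both arrays numbered 4 (0.0832), in scan 1 alone (0.128) and with probes averaged (0.0917). In all it held in 13 of 23 alternatives, and the replicate number as a block was among those where it was lost. Elavl2, the other neuronal relative, had 0.21 (adjusted p = 0.719), and its second probe differed in sign (-0.39).

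Nfasc encodes neurofascin, an adhesion molecule of the L1 family. It rose by a log2 difference of 1.62 (SE 0.24, limma adjusted p = 0.00751), while its second probe had 0.37 (adjusted p = 0.520). Nrcam, of the same family, had -0.65 (adjusted p = 0.631). Dclk1, a kinase with doublecortin domains, rose by 1.66 (SE 0.34, adjusted p = 0.0340), and its second probe had 1.36 (adjusted p = 0.251). The call of Dclk1 was lost when any array other than Klf4 replicate 4 was left out (adjusted p from 0.0601 without control replicate 5 to 0.118 without Klf4 replicate 2). It was also lost with no filter on dim probes (0.0609), with probes averaged (0.102), in scan 1 alone (0.115), with the slide row as a block (0.0589) and with the percentile over spots (0.0642), and in all it held in 10 of 23 alternatives. For Dcx itself the fit gave 0.03, with the wide interval above.

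The relatives of the vesicle proteins did not pass the test. Slc17a7, the VGLUT1 transporter, had a log2 difference of -0.40 (limma adjusted p = 0.448), and Slc32a1, the transporter for GABA and glycine, had -0.26 (0.785). The calcium sensor Syt1 had 0.08 (0.947) and Syt4 had 0.65 (0.863), each with a second probe of opposite sign (-0.15 and -0.37). Over all tested synaptotagmins related to Syt13, differences ran from -0.38 for Syt7 (0.641) to 1.20 for Syt17 (0.240).

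Among 28 other genes of ganglion cells, 25 had a probe, 16 were tested, 5 were higher and 0 lower, with a median log2 difference of 0.17. The higher genes were Stmn2 (3.38), a microtubule regulator of growing axons, Atoh7 (2.76), Nefm (1.89), a neurofilament subunit, Tubb3 (1.86), a neuronal tubulin, and Nell2 (1.59), a secreted glycoprotein of neurons. Nell2 had 0.63, 0.45, 0.32 and 1.08 on Klf4 arrays 2 to 5, against -1.28, -0.84, -1.01 and -0.76 on control arrays (SE 0.20, limma adjusted p = 0.00277). These 5 were past the threshold in each of the 23 alternatives. Pou4f2 had -0.25 (adjusted p = 0.648), with a second probe of opposite sign (0.21, adjusted p = 0.813), and Isl1 had 0.12 (adjusted p = 0.984). The 9 listed genes that had a probe but were not kept were Thy1, Nefl, Nrn1, Chrna6 and Opn4 (well above background on 2 arrays of each group), Sncg, Chrnb3, Pou4f3 and Tbr1.

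**Figure D4:**
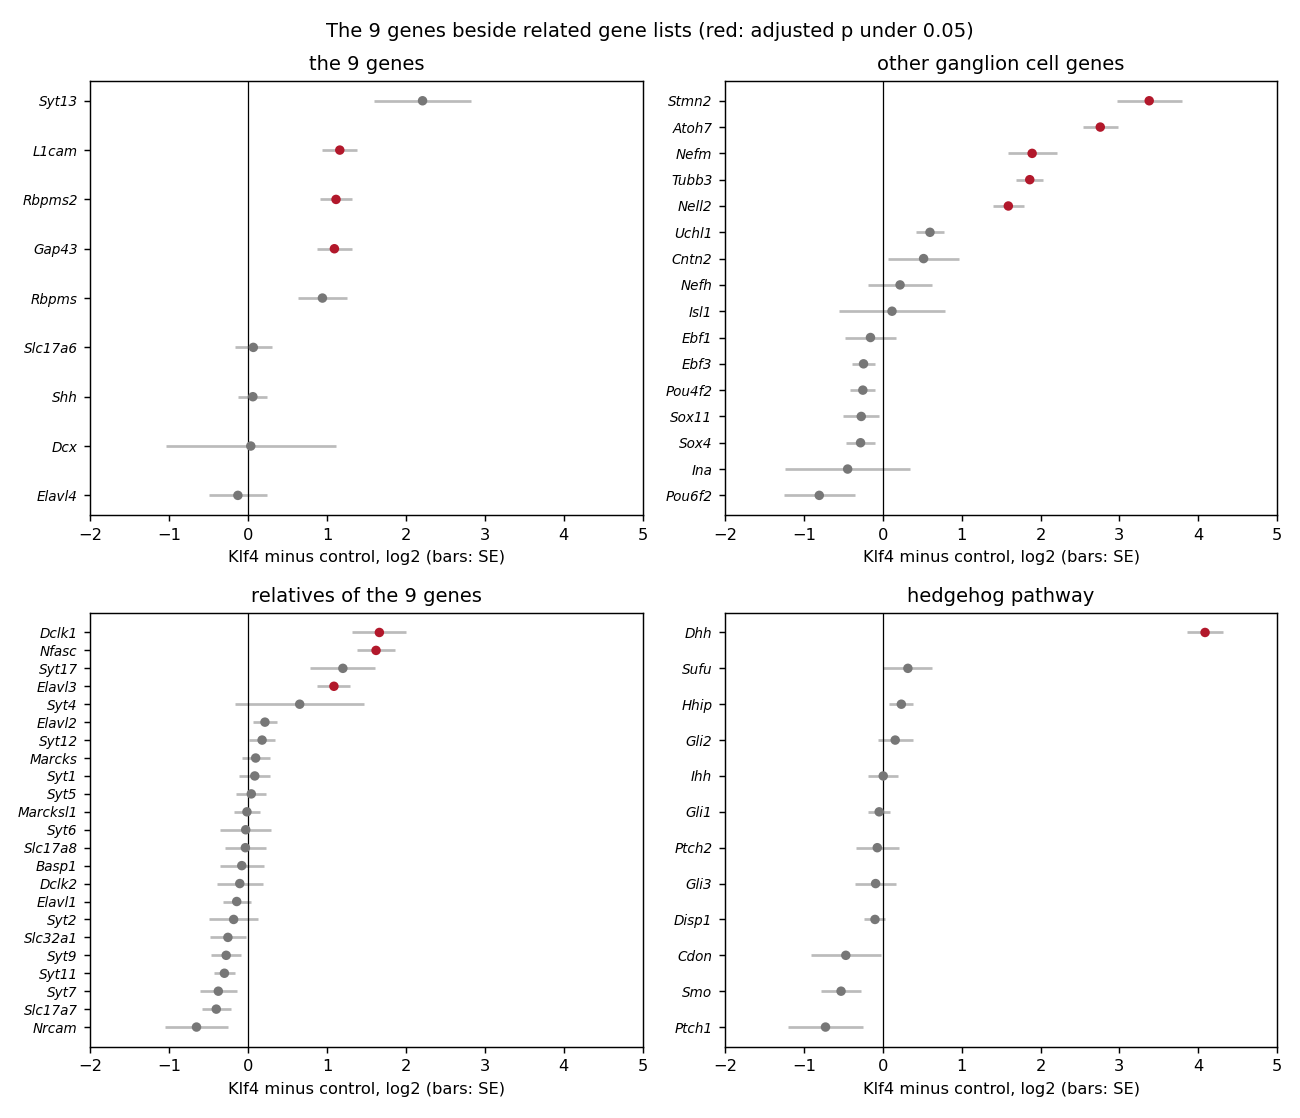
Log2 difference (Klf4 minus control) with SE bars for the tested genes of 4 lists, sorted by difference; red points had an adjusted p under 0.05. Higher genes numbered 3 of the 9, 5 of 16 other ganglion cell genes, 3 of 23 relatives and 1 of 12 hedgehog pathway genes.

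Markers of other cells were measured beside them. Linear normalised signals were summed over each list, and in such a sum the brightest gene weighs most. For the amacrine and horizontal, photoreceptor, and endothelial lists these were Prox1, Otx2 and Kdr (Klf4 log2 means 6.91, 6.83 and 6.70). The ranges are therefore not levels of cell types. By this sum, the 9 genes ranged from 5.53 to 6.71 on the Klf4 arrays and from 2.73 to 5.10 on the control arrays. The highest Klf4 log2 means among the 9 were those of Rbpms2 (0.68), L1cam (0.59) and Gap43 (0.04), the 3 genes past the threshold. On control replicate 3 the brightest of the 9 was Dcx (1.13). The 15 amacrine and horizontal cell markers summed to 131.9 to 162.0 with Klf4 and 129.4 to 173.9 in the control, with 2 higher (Sall3, 2.14, and Ptf1a, 0.68) and 0 lower. The 9 photoreceptor markers summed to 122.7 to 256.5 with Klf4 and 189.8 to 243.4 in the control, with 0 higher and 3 lower (Rbp3, -1.10, Crx, -0.84, and Rxrg, -0.69). All 9 photoreceptor differences were below 0, as were 18291 of all 30009 features. Among those that did not pass was Nrl, at -0.99 (limma adjusted p = 0.0876). The 13 progenitor and Muller glia markers summed to 139.6 to 182.2 with Klf4 and 115.0 to 150.3 in the control, with 1 higher (Vim, 1.14) and 0 lower. Slc1a3 of this list had -0.50 and did not pass (limma adjusted p = 0.519). Its second probe had -0.97 and passed when every kept probe was fitted (adjusted p = 0.0467), where 0.501% of probes were lower. Of 12 astrocyte, microglia and endothelial markers, 3 were higher (S100b, 3.80, Tek, 2.38, and C1qb, 1.04). The others did not pass: Kdr had 0.03, Cdh5 -0.01, C1qa 0.13, Csf1r -0.001, Cx3cr1 -0.23, Aif1 0.60, Gfap -0.40, Pax2 -0.09 and Aldh1l1 0.20. The 11 measured on every array summed to 93.6 to 160.8 with Klf4 and 99.9 to 118.4 in the control. Median log2 differences were -0.002 for amacrine and horizontal, -0.44 for photoreceptor, 0.17 for progenitor and Muller glia and 0.08 for these last markers. The S100b probe was well above background on 2 of 4 control arrays, its second probe had 1.49 and did not pass (limma adjusted p = 0.155), and the gene's difference was 1.85 with normexp background correction. Of these marker calls, Tek was past the threshold in all 23 alternatives, Vim in 22, Sall3 in 20, Rbp3 in 19, C1qb in 17, Crx and S100b in 12, Ptf1a in 11 and Rxrg in 10. Their part in the differences of the 9 genes was not tested.

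Likeness of profiles was measured as the root mean square difference over 8 arrays, each gene centred on its own mean. Between Gap43 and L1cam it was 0.149, the smallest of any pair among the 9, while Rbpms2 lay at 0.287 from Gap43 and 0.356 from L1cam. Slc17a6 and Shh, neither of which passed the test, lay at 0.230 from each other. Among 13495 named genes, those nearest to Rbpms2 by this measure were Crabp2 (0.128), a retinoic acid-binding protein, Il21r (0.154), a cytokine receptor, and Rab3d (0.156), a vesicle GTPase. Nearest to Gap43 were Nbl1 (0.135), a secreted antagonist of bone morphogenetic proteins, Slc4a11 (0.141), a membrane transporter, and Arrdc1 (0.143), an arrestin-domain protein. Nearest to L1cam were Acat2 (0.121), an acetyl-CoA acetyltransferase, Tubb2b (0.122), a neuronal tubulin, and Tm7sf2 (0.133), a sterol reductase. The difference between the groups, for which the 3 genes were selected, enters this measure, and no relation beyond likeness over these 8 arrays was tested.

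Arrays that carry the same number also had features in common. Rbpms, Rbpms2 and Gap43 were highest on the arrays numbered 5 in both groups, as were 17.8% of 29765 features. Dcx was highest on the arrays numbered 3 in both groups, as were 2.89% of features, and it exceeded the next array by 1.11 with Klf4 and 1.89 in the control. The same held for Isl1 and Ina of the 16 other ganglion cell genes, for Syt4, Slc17a7 and Slc32a1 of the 23 relatives, and for 4 of the 15 amacrine and horizontal cell markers (Calb1, Calb2, Gad1 and Onecut1). It also held for 3 of 11 astrocyte, microglia and endothelial markers (Aif1, C1qa and C1qb) and for 0 of 9 photoreceptor and 0 of 13 progenitor and Muller glia markers. The excess over the next array varied. It was large for Ina (1.85 with Klf4 and 1.58 in the control). It was small for Slc17a7 (0.26 and 0.03), Slc32a1 (0.29 and 0.11), Aif1 (0.30 and 0.09) and C1qb (0.15 and 0.19). This grouping was noticed after the values were seen, and its part in the spread of Dcx was not tested.

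**Figure D5:**
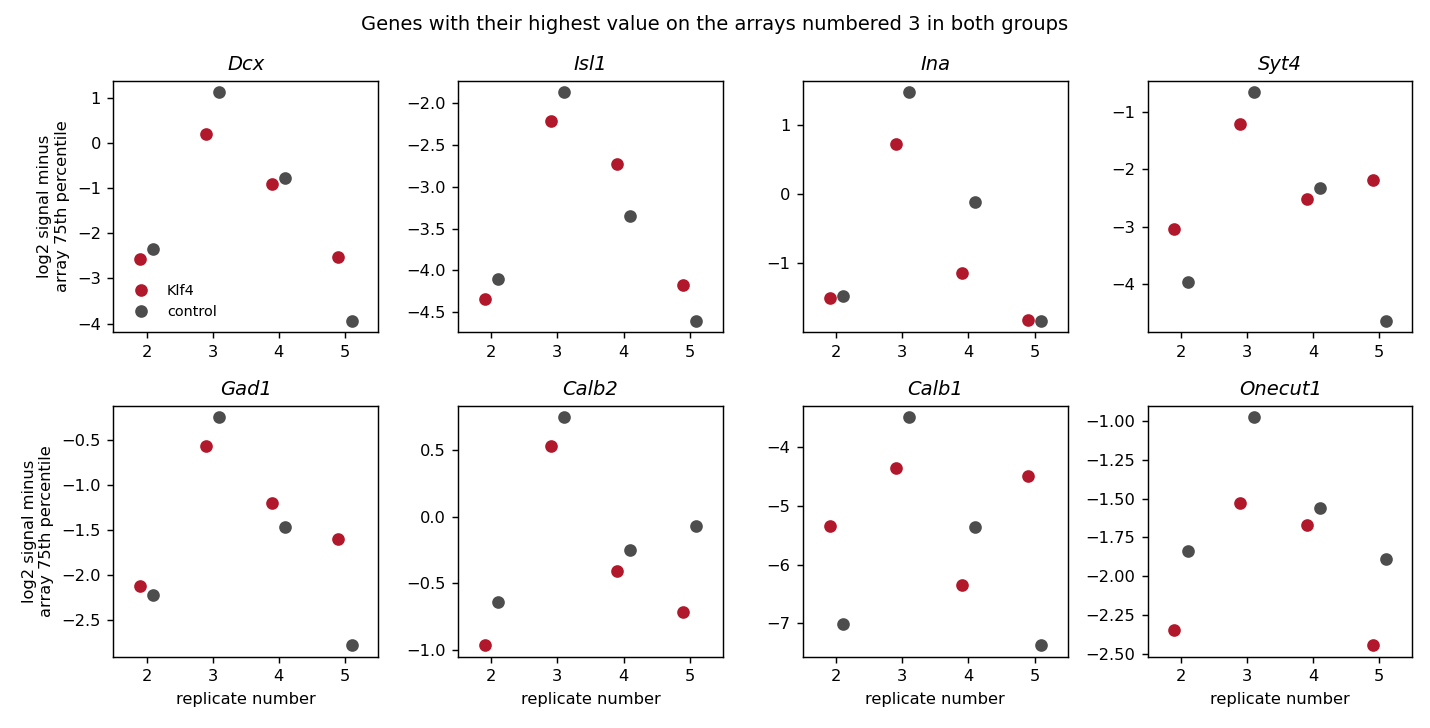
Normalised log2 signal by replicate number, with Klf4 in red and control in grey, for Dcx, 2 other ganglion cell genes, Syt4 and 4 amacrine and horizontal cell markers that were highest on the arrays numbered 3 in both groups. Each panel has its own scale.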

How the data were processed

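Retinal RNA of 4 Klf4 and 4 control samples was measured on single-colour Agilent arrays, 1 array a sample. The deposited intensity values are background-subtracted by Feature Extraction 10.7.3.1, per the file headers, with no scaling between arrays. Deposited flags (unit other) mark control, outlier and well-above-background spots. The authors also deposited log2 values (45735 probes). The method behind them was not given in any source used. Their columns each had a median of 7.54. They followed the scanner signals of the same array (r across probes 0.994 to 1.00) in the same direction with no centring of genes, and served as an alternative.

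Spots marked as control or outlier were dropped, the remaining log2 signals of a probe were averaged. The 75th percentile over gene probes was then subtracted on each array. Probes had to be well above background on 3 or more of the 4 arrays of either group, and the brightest such probe stood for its gene. Accessions without versions were matched to a RefSeq table of assembly GRCr8: 21109 of 45598 gene probes had 1 symbol, 0 several and 24489 none. The file headers name build rn4, so gene coordinates from the files are not given. Groups were compared over all 30009 features with limma 3.58.1 in R 4.3.3 (two-sided, no covariates, Benjamini-Hochberg), as Klf4 minus control, after a check on simulated data. The number of arrays limits the precision. Figures used matplotlib 3.10.9.

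The genes, the lists and the tests were chosen with earlier results of these data known. Named genes were the 9, the genes of each list past the threshold (at most 6 a list), Klf4, and the 3 named genes closest in profile to each of the 9 past the threshold. Some ganglion cell genes, hedgehog target genes and relatives were fixed by name. A few further genes were named after their values were seen. Alternatives changed the background correction (normexp with offset 50 on the median signal and median background, since the files used hold no mean signal), scaling, filter, probe rule, source, scan, slide row, array weights, replicate block and arrays included. The percentile over spots was added after seeing the data.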

Additional observations from a re-analysis of the deposited data

How the results depend on the processing

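Rbpms2, Gap43, L1cam and Rbpms kept a difference above 0 in all 23 alternatives, and Syt13 in the 18 in which it was tested. Log2 differences ranged from 0.9997 to 1.26 for Rbpms2, 0.90 to 1.23 for Gap43 and 0.99 to 1.33 for L1cam, with adjusted p up to 0.0658, 0.108 and 0.0971. Against 3 of the 9 genes higher, array weights gave 5, the percentile over spots 1 and leaving out 1 array 0 to 5; the count lower was 0 in each. The count was 0 without Klf4 replicate 2, control replicate 2 or control replicate 3. Over all features, against 960 higher and 139 lower, array weights gave 1805 and 1179, the first scan alone 619 and 50, and leaving out 1 array 573 to 1219 and 32 to 407; no filter gave 70 lower and the scan as a block 254 lower. Higher features were 87.4% of those called, and 60.5% with array weights. The percentile over spots moved the median of all features to -0.16. The replicate block gave 842 higher and 101 lower, with the same number of the 9 higher (3). Under it Elavl3 (adjusted p = 0.0514), Dclk1 (0.0612), S100b (0.0590), Sall3 (0.0778), Crx (0.0610) and Rxrg (0.0861) missed the threshold, and the SE of Dcx was 0.38, against 1.08 without it. After each feature's mean within its group was subtracted, same-numbered arrays correlated across features at 0.356, 0.244, 0.0643 and 0.552 (numbers 2 to 5). These values describe what remained, not the signals themselves. Those numbered 2, 3 and 5, but not those numbered 4, correlated best with each other. The labels state no pairing. Same-numbered arrays also shared a scan and lay in adjacent columns of the same slide row, so pairing of samples and array layout cannot be told apart. Differences near 0 changed sign. With the percentile over spots, Slc17a6 was -0.025, Dcx -0.057, Shh -0.030 and Syt1 -0.0061. With normexp, Dcx was -0.15 and Shh -0.054; in the first scan alone, -0.43 and -0.011; with array weights, -0.54 and -0.14, with Isl1 at -0.15 and Gli1 at 0.069. Gli1 was 0.0058 under quantile normalization, 0.0030 in the authors' deposited table and 0.0055 without both arrays numbered 4, where Isl1 was -0.051. Averaging probes gave -0.090 for Elavl2 and -0.033 for Syt1. Leaving out 1 array gave -0.041 to 0.29 for Slc17a6, -0.48 to 0.11 for Elavl4, -0.79 to 0.90 for Dcx, -0.073 to 0.16 for Shh, -0.27 to 0.65 for Isl1, -0.085 to 0.031 for Gli1, -0.027 to 0.26 for Syt1 and -0.15 to 0.54 for Klf4. The cause was not tested.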
